A study of Mus musculus with 8 samples.

Results

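The epidermal growth factor (EGF) family was followed through muscle regeneration in mesenchymal progenitors, which are stromal cells found between the fibres. Its 10 members here were the ligand genes Hbegf, Ereg, Btc, Nrg1, Tgfa and Areg, the receptor genes Egfr, Erbb2 and Erbb3, and Errfi1, which encodes an inhibitor of the receptors. They were chosen by gene name, and each stands on 1 row of a deposited table of 23846 rows with 23350 different symbols. All libraries came from sorted tdTomato-positive cells of whole hindlimb muscle of C57BL/6J mice with the genotype Hic1CreERT2/CreERT2;Rosa26LSLtdTomato/+. The mice were 8 weeks old when they received tamoxifen (2.5 mg daily for 5 days), and a washout of 10 days followed. CreERT2 is driven by the Hic1 locus on both alleles, so tdTomato marks cells that expressed Hic1 at the time of tamoxifen and their descendants. Quiescent cells gave 1 library, and each of days 1, 2, 3, 4, 5, 7 and 10 gave 1 library, counted from a notexin injury. Notexin is a phospholipase from snake venom that kills muscle fibres. Whether a library pools several mice is not given in the sources used here.

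EGF family ligands are made as membrane-anchored precursors and are released when metalloproteases such as ADAM17 cut them near the membrane. They bind receptor tyrosine kinases that work in pairs and signal through RAS and ERK. EGFR binds HB-EGF, epiregulin, betacellulin, TGF-alpha and amphiregulin. ERBB3 binds neuregulins but has little kinase activity of its own, and ERBB2 has no known ligand and serves as a partner. In muscle, neuregulin and ERBB3 are best known from Schwann cells and nerve endings, and amphiregulin from regulatory T cells that act on satellite cells.

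Transcript levels are given in FPKM, which scales fragments to transcript length and library size and so can be compared between genes. With 1 library a time point there was no spread between animals to compare with, so no test was made. Intervals in brackets are 95% intervals on the estimated fragments, exact Poisson for a level and exact binomial for a ratio, and cover counting error only. A gene was called higher or lower when log2(FPKM + 1) differed by 1 or more and the higher of both libraries reached 5 FPKM. Of the 10 members, 5 (Errfi1, Egfr, Erbb2, Hbegf and Ereg) reached 5 FPKM in any library, and Btc, Nrg1, Tgfa, Areg and Erbb3 could therefore not be called. The libraries held an estimated 10650000 to 28350000 fragments, the day 10 library being the deepest. All 8 markers of mesenchymal progenitors, Pdgfra and Hic1 among them, were at 1 FPKM or more in every library. The FPKM values of all genes summed to 460671 in quiescent and up to 711972 on day 2. Among genes at 5 FPKM or more in either library, the median difference from quiescent on the log2(FPKM + 1) scale was above 0. It was 0.26 on day 1, 0.29 on day 2 and 0.21 on day 3, so member differences at these days are read against that shift.

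RefSeq promoter windows on GRCm38.p6 ran from 250 bases before to 50 after a gene's start. They were matched by symbol, and those kept cover 6 of the 10 members. No window of Hbegf, Ereg, Nrg1 or Erbb3 was among those kept, so no motif result is reported for these members. Nothing is said here on whether their promoters hold the motifs. The windows of Errfi1 (chr4:150854820-150855119, plus strand), Areg (chr5:91139349-91139648, plus strand) and Egfr (chr11:16751953-16752252, plus strand) are shown because these are the most abundant member, a ligand near the limit of detection and the most abundant receptor. Tgfa, a ligand also near that limit, has a window that is not shown. The first motif searched was AP-1, spelled TGANTCA. The cAMP response element (CRE) was spelled TGACGTCA. The GC box was searched as GGGCGG, and the TATA box by the letters TATAAA. Both strands were searched, and capitals mark the matches.
Errfi1: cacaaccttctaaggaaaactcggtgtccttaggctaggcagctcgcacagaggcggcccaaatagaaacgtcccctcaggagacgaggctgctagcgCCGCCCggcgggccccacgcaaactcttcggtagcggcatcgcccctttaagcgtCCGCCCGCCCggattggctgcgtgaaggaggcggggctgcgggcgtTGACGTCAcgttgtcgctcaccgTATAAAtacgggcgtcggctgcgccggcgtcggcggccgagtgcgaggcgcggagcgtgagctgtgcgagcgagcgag
Areg: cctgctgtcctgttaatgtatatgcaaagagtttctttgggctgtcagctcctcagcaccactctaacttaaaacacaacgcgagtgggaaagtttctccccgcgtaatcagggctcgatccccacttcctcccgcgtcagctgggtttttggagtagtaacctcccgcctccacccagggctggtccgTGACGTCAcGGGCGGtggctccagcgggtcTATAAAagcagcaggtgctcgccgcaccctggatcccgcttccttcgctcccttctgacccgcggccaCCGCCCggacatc
Egfr: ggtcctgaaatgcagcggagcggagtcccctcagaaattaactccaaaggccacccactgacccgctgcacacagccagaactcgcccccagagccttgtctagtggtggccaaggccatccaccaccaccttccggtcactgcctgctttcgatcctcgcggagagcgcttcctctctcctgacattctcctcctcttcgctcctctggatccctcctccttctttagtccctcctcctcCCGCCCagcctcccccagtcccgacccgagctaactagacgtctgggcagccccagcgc
The windows of Errfi1 and Areg both hold 1 CRE, whose first base lies 51 and 61 bases before the start, and 1 TATA box that begins 28 and 31 bases before it. Of the 7 windows kept, no other holds a CRE or a TATA box. A CRE was found in 1.79% of all 32851 windows of this length, a TATA box in 13.6%, a GC box in 35.7% and AP-1 in 7.81%. The Egfr window holds 1 GC box, with no match to the other 3 motifs. The Errfi1 window has 3 GC box matches, of which 2 overlap each other, and 41 CG pairs, against a median of 7 over all windows. A second RefSeq start of Errfi1, the Btc window and the Erbb2 window hold none of the 4 motifs, and the Tgfa window holds 2 GC boxes. These are letter matches only, and no binding was measured.

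The level of Errfi1 was far above that of the other members in every library, Egfr stood next, and the ligands were low. Errfi1 (chromosome 4, 150855091 to 150868880) ranked 236th of all genes in quiescent, with 1.01% of genes above it. Egfr (chromosome 11, 16752203 to 16913907) had 5.24% of genes above it on day 10 and 12.1% on day 2. Of the receptor FPKM sum, Egfr made between 80.6% (day 2) and 88.5% (day 1) and Erbb2 between 10.9% (day 1) and 18.6% (day 2). The receptor sum was 55.2 FPKM in quiescent and 35.3 on day 3, whereas the sum over the 6 ligands ran from 3.50 FPKM on day 3 to 13.6 on day 1.

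**Figure D1:**
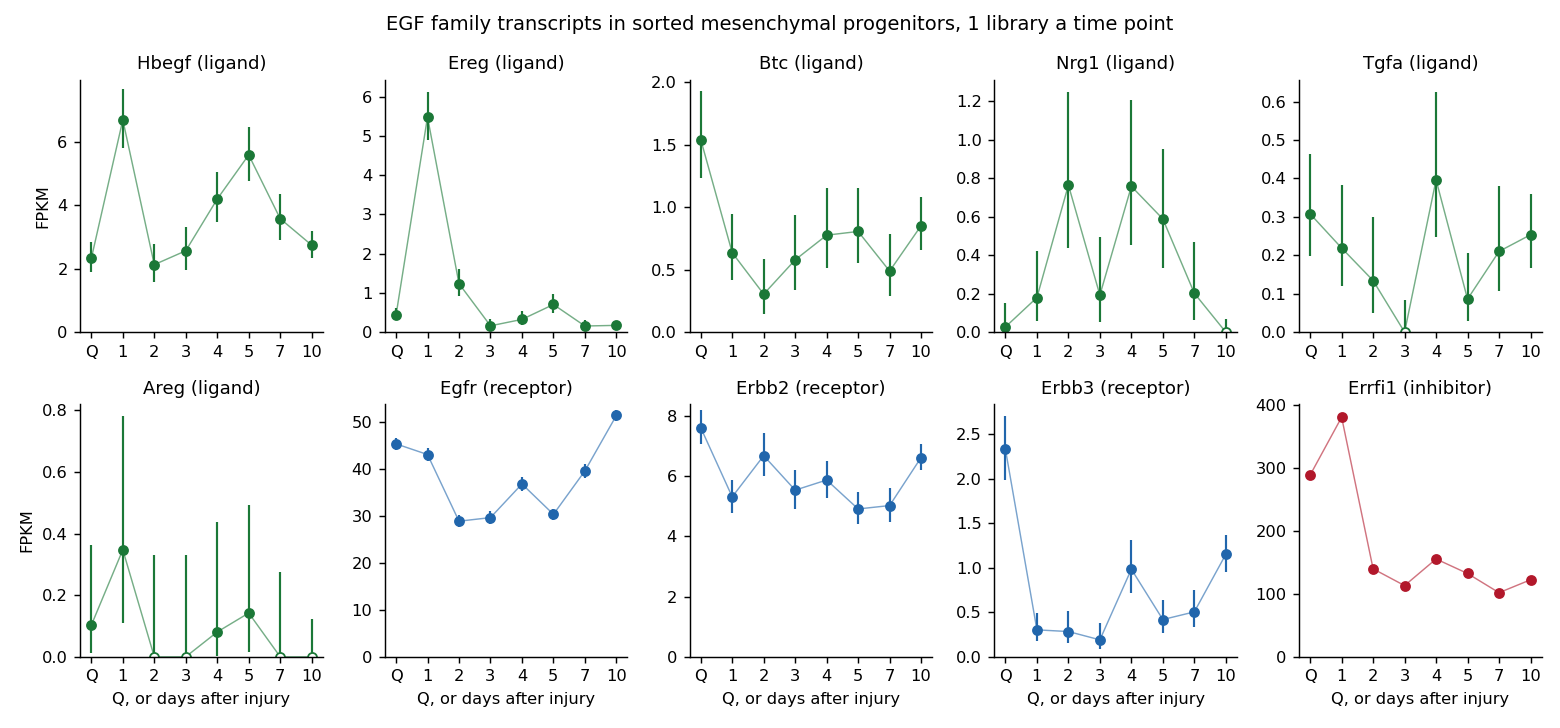
FPKM of each of the 10 members (vertical axis, from 0) in the quiescent library (Q) and on days 1 to 10 after injury (horizontal axis), with 1 point a library. Bars are 95% Poisson counting intervals, open points are values listed at the floor, and colours give the role. Ereg peaks on day 1 at 5.48 FPKM, and Errfi1 stands at 289 and 380.5 FPKM in quiescent and day 1 against at most 155 later.

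Among the ligands, Hbegf and Ereg stood out on day 1. Both were called higher than in quiescent and no member lower, so 2 of 10 members, or 2 of the 5 that reached 5 FPKM in either library, were higher. Hbegf and Ereg passed that minimum through day 1 alone, so the 2 of 5 partly follows from it. Of all genes tested, each at 5 FPKM or more, 22.4% were higher, 12.5% lower and 34.9% called either way. Both calls were lost when libraries were scaled by median ratio or set to a common FPKM sum. The Ereg difference was then 1.89 and 1.74 on the log2(FPKM + 1) scale with Ereg itself under 5 FPKM, and that of Hbegf 0.91 and 0.76. At day 1 the macrophage markers, of which 14 of 15 are in the table, summed to 177 FPKM against 35.0 in quiescent, and the neutrophil markers to 46.2 against 41.5. The part of other cells in the ligand values was not tested, and in such bulk libraries fewer cells of a type cannot be told apart from less RNA per cell.

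Ereg encodes epiregulin, a ligand of EGFR that inflamed tissue makes in bursts. Its gene (chromosome 5, 91074617 to 91093649) gave 0.433 FPKM in quiescent (0.302 to 0.616), 5.48 on day 1 (4.89 to 6.13), 1.24 on day 2 (0.917 to 1.61) and 0.161 on day 3 (0.0664 to 0.34). It then gave 0.325 on day 4, 0.705 on day 5, 0.156 on day 7 and 0.173 on day 10. The day 1 library stood alone above all others, the day 2 library came next, and days 3, 4, 7 and 10 lay below quiescent. The ratio of day 1 to quiescent was 12.7 (8.72 to 18.5), from an estimated 311 and 33 fragments. From day 1 to day 2 Ereg was called lower, by a ratio of 4.43 (3.32 to 6.12). At day 1 Ereg made 40.5% of the ligand sum, against 9.15% in quiescent and 3.38% on day 7, a share that does not depend on how libraries are scaled.

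The genes whose profile was most like that of Ereg over the 8 libraries, among 9476 genes reaching 5 FPKM, were Yrdc, Rrs1 and Trmt61a. Likeness was the root mean square difference of centred log2(FPKM + 1), which was 0.15 for Yrdc, 0.16 for Rrs1 and 0.20 for Trmt61a. On this scale the change of a low gene such as Ereg is understated, so genes alike on it can differ in ratio. Rrs1 encodes a ribosome assembly factor, and Yrdc and Trmt61a encode enzymes that modify transfer RNA. Yrdc stood at 7.02 FPKM in quiescent, 36.2 on day 1, 16.3 on day 2 and 7.43 on day 3.

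Hbegf encodes heparin-binding EGF-like growth factor, and it had the highest level of the 6 ligands in each library. The gene (chromosome 18, 36504927 to 36515805) gave 2.32 FPKM in quiescent (1.89 to 2.84), 6.69 on day 1 (5.82 to 7.65), 2.13 on day 2 (1.57 to 2.78) and 2.56 on day 3 (1.97 to 3.31). It gave 4.20 on day 4 (3.46 to 5.05), 5.59 on day 5 (4.77 to 6.47), 3.58 on day 7 (2.91 to 4.34) and 2.74 on day 10 (2.35 to 3.18). Days 1 and 5 were the high libraries and their counting intervals overlap, while quiescent and days 2, 3 and 10 were low with intervals that overlap as well. The ratio to quiescent was 2.88 (2.25 to 3.68) on day 1 and 2.40 (1.86 to 3.10) on day 5. At day 5 the difference of 0.99 on the log2(FPKM + 1) scale lay just under the threshold, and it was 1.23 with a pseudocount of 0.1 FPKM, 0.87 with median-ratio scaling and 0.67 at a common FPKM sum. The macrophage marker sum was 941 FPKM on day 3, 156 on day 4, 539 on day 5 and 86.5 on day 10. The neutrophil sum was 7.97, 2.08, 80.0 and 54.5 FPKM on these days. Hbegf itself gave 2.56, 4.20, 5.59 and 2.74 FPKM on these days. The part of macrophages and neutrophils in the Hbegf values was not tested. The Hbegf step from day 1 to day 2 was called lower, with a ratio of 3.14 (2.32 to 4.40).

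Hbegf made 49.0%, 49.3% and 46.6% of the ligand sum in quiescent and on days 1 and 2. Its share was between 64.2% (day 4) and 77.2% (day 7) in the 5 libraries from day 3 on. The genes most like Hbegf were Adora2b (0.21), Cfb (0.23) and Oaf (0.27), on the same measure of likeness. Adora2b encodes an adenosine receptor and Cfb a complement factor. Genes like Hbegf, Errfi1, Egfr, Erbb3 and Btc were looked up after the values of these members had been seen.

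Btc encodes betacellulin, a ligand of EGFR and ERBB4. The gene (chromosome 5, 91357261 to 91402994) gave 1.54 FPKM in quiescent (1.23 to 1.93), 0.636 on day 1, 0.304 on day 2 (0.142 to 0.588) and 0.579 on day 3. It gave 0.777 on day 4, 0.807 on day 5, 0.489 on day 7 and 0.853 on day 10 (0.66 to 1.09). Quiescent stood alone above the 7 injured libraries, and its counting interval overlaps none of theirs. The ratio of quiescent to day 2 was 5.07 (2.51 to 11.4) and that of quiescent to day 10 was 1.81 (1.30 to 2.56). Btc made 32.6% of the ligand sum in quiescent and 4.69% on day 1.

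Nrg1 encodes neuregulin 1, the ligand of ERBB3 and ERBB4. Its row (chromosome 8, 31818028 to 31918203) gave 0.0271 FPKM in quiescent, 0.18 on day 1, 0.764 on day 2, 0.193 on day 3, 0.758 on day 4, 0.588 on day 5 and 0.202 on day 7, and it was listed at the floor of 0.001 on day 10. These rest on an estimated 1, 5, 16, 4, 18, 16, 5 and 0 fragments. Days 2, 4 and 5 were the high libraries and day 3, between them, was low. The locus has 12 coding transcripts in GENCODE M21 of 407 to 5415 bases, and the deposited row covers part of the gene, so isoforms outside it are not seen. Nrg1 made 16.7% of the ligand sum on day 2 and 11.6% on day 4.

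Tgfa and Areg, which encode TGF-alpha and amphiregulin, were near the limit of detection. Tgfa (chromosome 6, 86195251 to 86275449) gave 0.308 FPKM in quiescent, 0.219 on day 1, 0.134 on day 2, the floor on day 3, 0.396 on day 4, 0.0861 on day 5, 0.21 on day 7 and 0.253 on day 10. Day 3 allows a level of up to 0.0849 FPKM, while quiescent and days 4 and 10, the highest libraries, have overlapping intervals. Areg (chromosome 5, 91139615 to 91148432) gave 0.103 FPKM in quiescent, 0.347 on day 1, 0.0806 on day 4 and 0.142 on day 5, and was at the floor on days 2, 3, 7 and 10. No library held more than an estimated 5 fragments of Areg, and the interval on day 1 (0.109 to 0.781) overlaps that of quiescent (0.0122 to 0.364). The 6 T cell markers, all in the table, summed to between 0.219 FPKM (day 1) and 2.51 (day 10). In quiescent and on days 1, 3 and 7 Cd3e, Cd3g and Cd3d were at the floor, while Foxp3, which marks regulatory T cells, stood at 0.0296, 0.0584, 0.0521 and 0.022 FPKM. Il2ra made most of the sum in quiescent (1.74 FPKM) and on day 7 (2.00). The part of T cells in the Areg values was not tested.

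Ereg, Areg and Btc lie together on chromosome 5 with Epgn, the gene of epigen, inside 375.5 kb. The order along the chromosome is Epgn, Ereg, Areg, the non-member Gm19619 and Btc. At day 1 Ereg was at 5.48 FPKM, Areg at 0.347 and Epgn at 0.0914, while Btc was at 0.636 and below its quiescent level. In that library the counting interval of Ereg lay above those of Areg and Btc, which overlap each other.

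**Figure D2:**
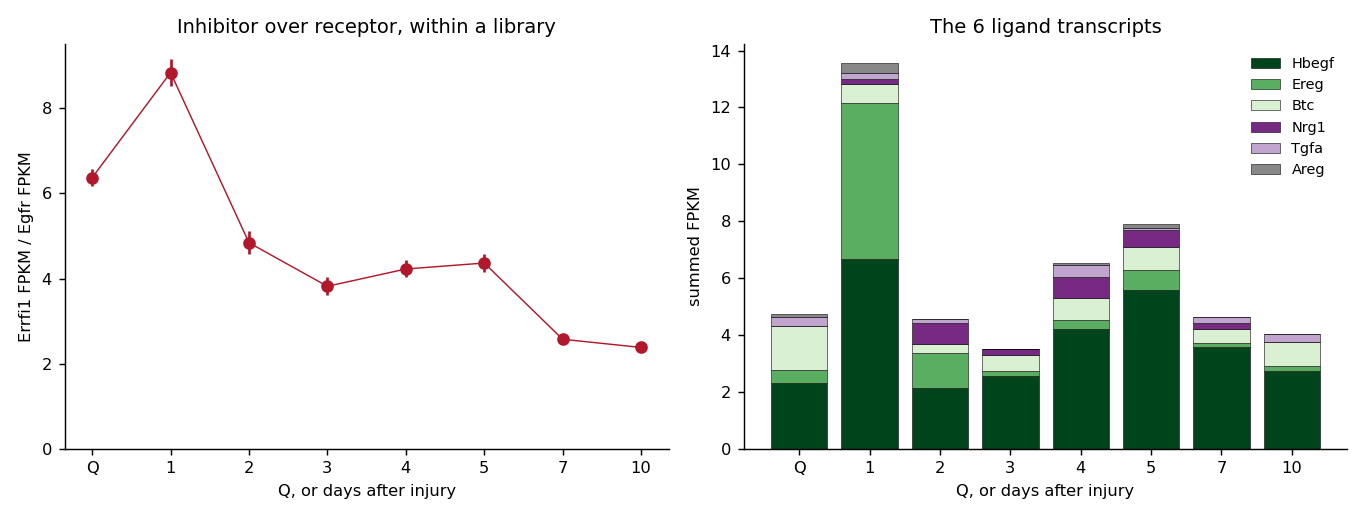
Left, the ratio of Errfi1 to Egfr FPKM within each library, with 95% counting intervals. Right, summed FPKM of the 6 ligand transcripts by library, stacked by gene. The ratio is highest on day 1 (8.84) and lowest on day 10 (2.38), and the ligand sum is highest on day 1 (13.6 FPKM).

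As deposited, Egfr and Erbb2 stayed within a ratio of 2 over the 8 libraries, while Erbb3 was highest in quiescent. No receptor was called at any day, and 3 of 10 members (Egfr, Erbb2 and Errfi1) were at 5 FPKM or more in either library on days 2, 3, 4, 7 and 10. Egfr encodes the receptor of most of these ligands and gave 45.3 FPKM in quiescent (44.1 to 46.6), 43.0 on day 1, 28.9 on day 2 (27.5 to 30.2) and 29.6 on day 3. It gave 36.8 on day 4, 30.3 on day 5, 39.6 on day 7 and 51.4 on day 10 (50.3 to 52.5). Day 10 and quiescent were the high libraries and days 2, 3 and 5 the low ones, and these 3 have overlapping intervals. The ratio of quiescent to day 2 was 1.57 (1.49 to 1.66), and that of day 10 to quiescent was 1.13 (1.09 to 1.17). Rescaled to a common FPKM sum, Egfr was called lower on days 2 and 3, with differences of -1.24 and -1.02 against -0.63 and -0.60 as deposited. The share of all genes called after this rescaling was not computed. The genes most like Egfr were Gga3 (0.08), Zmynd11 (0.08) and Gpr125 (0.08).

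Erbb2 encodes the partner receptor without a ligand of its own. The gene (chromosome 11, 98412484 to 98437716) gave 7.61 FPKM in quiescent (7.05 to 8.19), 5.31 on day 1, 6.68 on day 2, 5.53 on day 3, 5.87 on day 4, 4.91 on day 5 (4.40 to 5.47), 5.02 on day 7 and 6.62 on day 10. Quiescent was the highest library, although its interval overlaps those of days 2 and 10 slightly. The whole range was a ratio of 1.55 between quiescent and day 5. The ratio of Egfr to Erbb2 within a library was 5.95 in quiescent, 8.10 on day 1, 4.32 on day 2, 5.35 on day 3 and 7.76 on day 10.

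Erbb3 encodes the neuregulin receptor. The gene (chromosome 10, 128569368 to 128589501) gave 2.33 FPKM in quiescent (1.99 to 2.70), 0.302 on day 1, 0.283 on day 2 and 0.19 on day 3 (0.0838 to 0.382). It gave 0.982 on day 4 (0.719 to 1.31), 0.418 on day 5, 0.504 on day 7 and 1.15 on day 10 (0.957 to 1.37). Quiescent stood above every injured library, days 4 and 10 were intermediate, and the other 5 were low. The ratio of quiescent to day 1 was 7.70 (4.57 to 13.2) and that of quiescent to day 10 was 2.02 (1.60 to 2.57). With a minimum of 1 FPKM in place of 5, Erbb3 was called lower on days 1, 2, 3, 5 and 7. The share of all genes called at that minimum was not computed.

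Schwann cell markers are given beside Erbb3 because that receptor is abundant in Schwann cells. The 10 markers, all in the table, summed to 152 FPKM in quiescent, 8.79 on day 1, 8.93 on day 2, 21.1 on day 3, 38.5 on day 4, 61.1 on day 5, 108 on day 7 and 173 on day 10. Gfap was at the floor on days 2, 4, 5 and 7. At day 1 Erbb3 was at 13.0% of its quiescent level and the 8 markers at 1 FPKM or more in quiescent were at a median of 7.10% (1.17% to 13.6%). At day 7 Erbb3 was at 21.7% and the markers at a median of 79.6% (57.5% to 137%), and on day 10 the values were 49.4% and 127% (90.8% to 233%). Brackets on these percents give the lowest and highest of the 8 markers and are not counting intervals. Erbb3 lay below all 8 markers on days 5, 7 and 10, and within their range on days 1, 2, 3 and 4. It was at 12.2% on day 2, 8.17% on day 3 and 42.2% on day 4. The marker medians were 8.83%, 17.0% and 31.4% on those 3 days. The part of Schwann cells in the Erbb3 values was not tested. The genes most like Erbb3 were Adamts5 (0.09), Plxna1 (0.10) and Cgnl1 (0.11). Adamts5, a protease of cartilage proteoglycans, stood at 99.4 FPKM in quiescent, 42.8 on day 1 and 60.0 on day 10. The likeness scale understates the change of Erbb3, and by ratio Adamts5 changed less between quiescent and day 1.

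**Figure D3:**
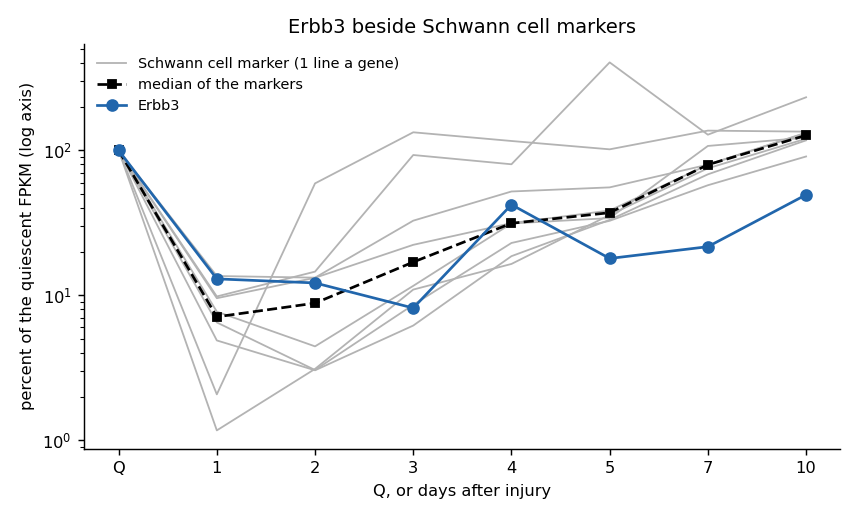
Percent of the quiescent FPKM (vertical log axis) for Erbb3 (blue), 8 Schwann cell markers (grey, 1 line a gene) and their median (black squares) by library. Erbb3 is at 49.4% on day 10, where the markers have a median of 127%.

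Errfi1, also called Mig6, encodes a protein that binds the kinase domain of EGFR and ERBB2 and blocks it, and its gene is switched on by the signal it limits. It gave 289 FPKM in quiescent (284 to 293), 380.5 on day 1 (375 to 386), 139.7 on day 2 (136 to 144) and 113 on day 3 (109 to 117). It gave 155 on day 4, 132 on day 5, 102 on day 7 (98.6 to 105) and 122 on day 10 (119.9 to 125). The quiescent and day 1 libraries were high and the 6 later ones low, and the groups do not overlap. With the values as deposited, Errfi1 was the only member called lower against quiescent, on days 2, 3, 5, 7 and 10. This was 1 of 10 members at each of these days, or 1 of the 3 at 5 FPKM or more (4 on day 5), where 10.9% of all genes tested were lower on day 2, 8.28% on day 3, 4.63% on day 5, 2.34% on day 7 and 1.12% on day 10. At day 4 no member was called, with 6.69% of all genes called in either direction and Errfi1 at -0.89 on the log2(FPKM + 1) scale. Rescaled to a common FPKM sum, Errfi1 was called lower on day 4 too (-1.04).

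The ratio of quiescent to the injured library for Errfi1 was 2.07 (2.00 to 2.14) on day 2, 2.84 (2.74 to 2.94) on day 7 and 2.36 (2.30 to 2.42) on day 10. The step from day 1 to day 2 was called lower with a ratio of 2.72 (2.63 to 2.82). At this step 3 of 10 members (Hbegf, Ereg and Errfi1) were lower, which is 3 of the 5 at 5 FPKM or more. Of all genes 2.95% were lower and 8.81% called either way. Hbegf and Ereg passed the 5 FPKM minimum through day 1 alone, so the 3 of 5 partly follows from that minimum. With median-ratio scaling, tried after the data were seen, the Ereg call was lost, and at a common FPKM sum Errfi1 alone was called. Later steps held no called member, with 8.06%, 8.26%, 2.23%, 2.52% and 1.32% of all genes called at them in order. Which of the 2 high libraries was higher depended on scaling. Errfi1 on day 1 lay 0.40 above quiescent as deposited, 0.05 above under median-ratio scaling and 0.13 below when rescaled to a common FPKM sum (log2 difference -0.13).

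A ratio within a library is free of that scaling. Errfi1 over Egfr was 6.37 in quiescent (6.17 to 6.58), 8.84 on day 1 (8.52 to 9.17), 4.84 on day 2, 3.82 on day 3, 4.22 on day 4 and 4.36 on day 5. It was 2.57 on day 7 (2.45 to 2.70) and 2.38 on day 10 (2.31 to 2.45). Day 1 was highest and days 7 and 10 were lowest. Against day 10 as the reference, a comparison added after the data were seen, Errfi1 was called higher in quiescent (1.23) and on day 1 (1.63) and at no other day. Hbegf (1.04) and Ereg (2.47) were also called higher on day 1 against day 10. The share of all genes called between these libraries was not computed.

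The genes most like Errfi1 were Maff (0.13), Nr1d1 (0.15) and Zc3h12a (0.15). Maff encodes a small transcription factor induced by stress, Nr1d1 a repressor of the circadian clock and Zc3h12a an RNase that limits inflammation. Maff stood at 33.9 FPKM in quiescent, 51.9 on day 1, 19.0 on day 2 and 12.7 on day 10. The immediate early gene Egr1 stood at 934 FPKM in quiescent and between 390.3 (day 2) and 634 (day 4) after injury, and unlike Errfi1 it was called lower on day 1. Egr1 encodes a transcription factor that ERK signalling switches on within minutes.

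**Figure D4:**
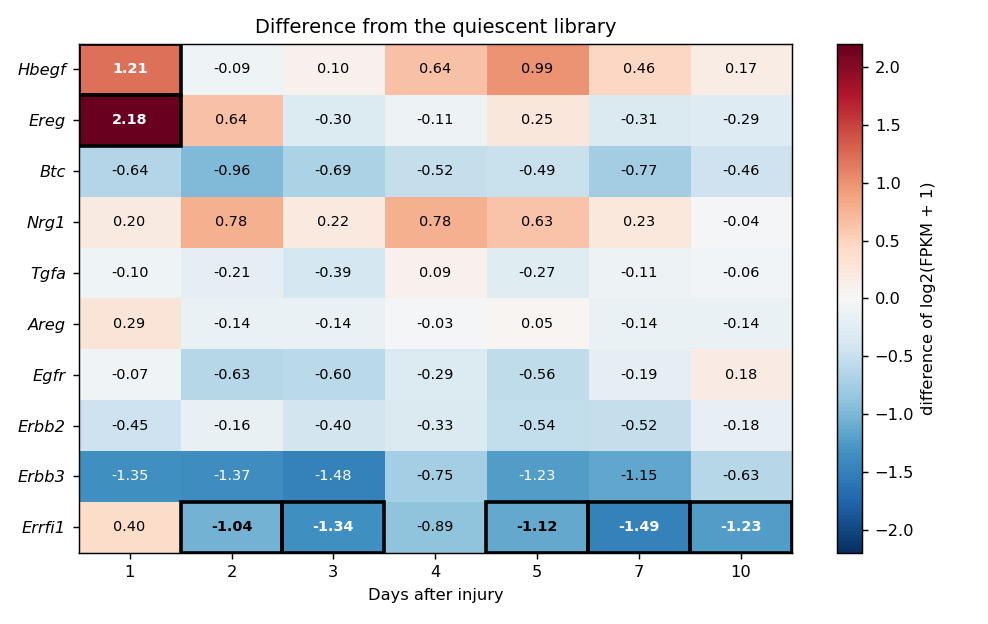
Difference of log2(FPKM + 1) from the quiescent library for the 10 members (rows) on days 1 to 10 after injury (columns), in colour and in numbers. Framed bold cells were called, which are Hbegf and Ereg on day 1 and Errfi1 on days 2, 3, 5, 7 and 10.

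From day 3 to day 4 no member was called, but the day 4 value lay above the day 3 value for all 10, with a median difference of 0.38 on the log2(FPKM + 1) scale. The counting intervals of the ratio include 1 for Ereg (0.783 to 5.78), Btc (0.703 to 2.64) and Erbb2 (0.902 to 1.24). Tgfa and Areg were at the floor on day 3, and Areg rested on 1 fragment on day 4. Over the genes at 5 FPKM or more in either library, 2890 were higher and 5532 lower at this step, with a median of -0.17. Under both rescalings the day 4 values also lie above, since the scaling factor of day 4 (0.94 by median ratio, 0.90 by common sum) is above that of day 3 (0.84 and 0.74). Macrophage markers summed to 941 FPKM on day 3, 156 on day 4 and 539 on day 5, and their part in this step was not tested. From day 4 to day 5 the values of 4 members lay above and those of 6 below.

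The rest of the pathway was described by 6 lists with 51 names, of which 49 are in the table. The other ligands were scarce, Egf lying between 0.164 and 0.298 FPKM and Nrg3 at the floor in all 8 libraries, as was the receptor gene Erbb4. Nrg2 stood at 0.648 FPKM in quiescent, 0.0259 on day 1 and 1.35 on day 10. Among the genes of ligand shedding, Adam17 stood at 26.3 FPKM in quiescent and between 16.6 and 26.8 after injury, and was called at no day as deposited, but lower on day 1 at a common FPKM sum. Rhbdf1, whose product helps ADAM17 mature, was called lower on day 2 (68.4 to 31.0 FPKM).

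Of 35 pathway genes at 5 FPKM or more on day 1, 6 were higher and 3 lower, beside 34.9% called over all genes. The balance turned with scaling, to 4 higher and 6 lower by median ratio and to 4 higher and 8 lower at a common sum. Of 13 adaptors and kinases the kinase gene Map2k2 was higher (29.1 to 59.8 FPKM) and the adaptor gene Gab1 lower (10.3 to 3.93). The brake Socs5, which targets EGFR for breakdown, stood at 6.71 FPKM in quiescent and 42.4 on day 1, a difference of 2.49. Its calls on days 2 and 3 (16.3 and 14.6 FPKM) were lost under median-ratio scaling and at a common FPKM sum. Of 12 ERK response genes on day 1, Fosl1 (0.752 to 13.2 FPKM), Ier3 (142 to 411), Dusp5 and Spred1 were higher and Spry1 and Egr1 lower. The calls of Map2k2 and Dusp5 were lost under both scalings, and those of the other 7 genes were kept.

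At day 10, 3 of 34 pathway genes were higher and 2 lower, where 3.01% and 1.12% of all genes were and 4.13% were called in all. The 3 higher genes belong to the ERK response. Dusp6, an ERK phosphatase, stood at 10.0 FPKM in quiescent and 41.3 on day 10, the transcription factor gene Etv4 at 4.97 and 21.4, and the feedback inhibitor gene Spry4 at 9.67 and 21.0. Spry4, with a difference of 1.04, lost its call under median-ratio scaling. In the same list Ier3 stood at 34.6 against 142 and was called lower, as was Socs3 among the brakes. At days 2, 3, 4, 5 and 7 the pathway genes called were 7 of 34, 3 of 34, 2 of 33, 1 of 34 and 4 of 34, beside 34.6%, 23.9%, 6.69%, 13.0% and 6.28% of all genes.

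**Figure D5:**
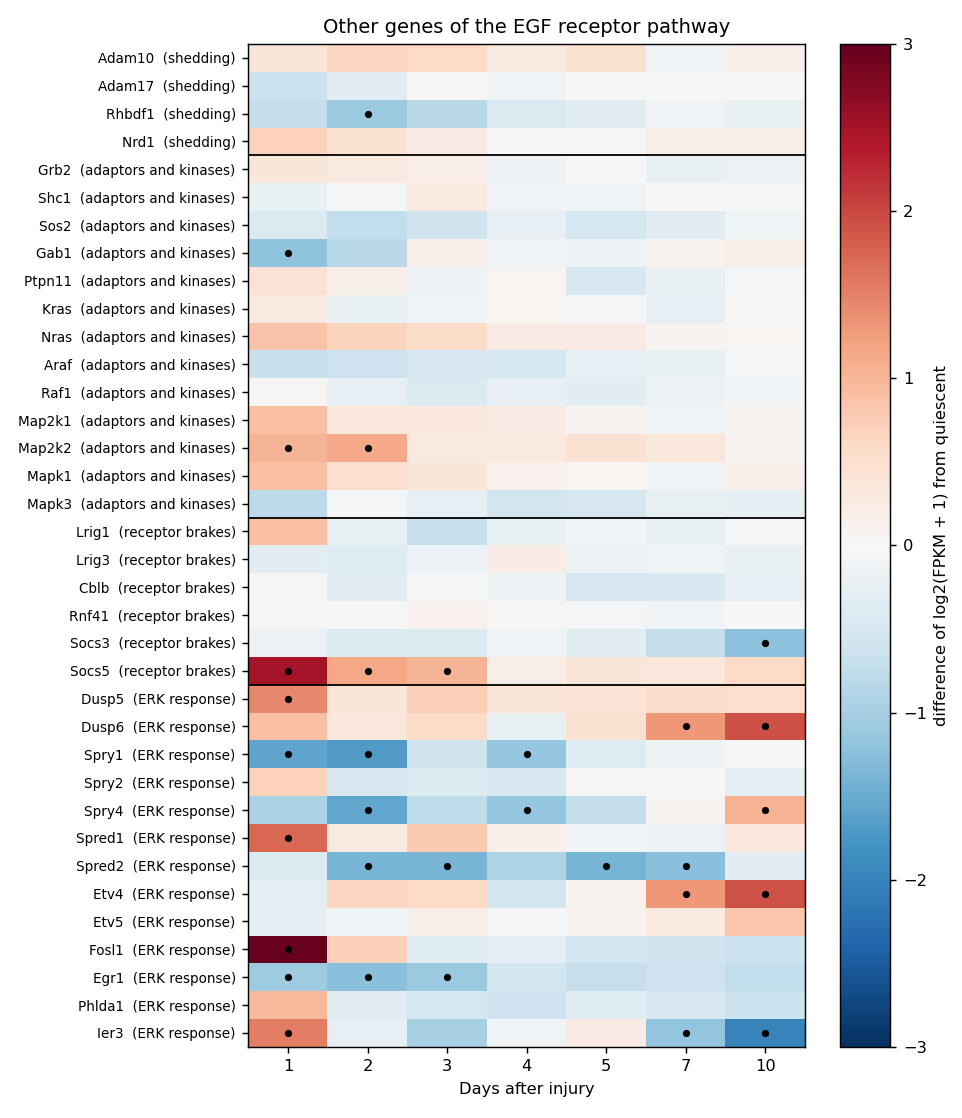
Difference of log2(FPKM + 1) from quiescent (colour) for the 36 pathway genes that reached 5 FPKM, by list (rows) and day (columns). Black dots mark calls, such as Dusp6 and Etv4 on days 7 and 10, and Socs5 on days 1, 2 and 3, of which days 2 and 3 were lost under both scalings.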

How the data were processed

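PolyA RNA of 8 sorted cell populations was sequenced, and labels gave each library's time point. The deposited values are the authors' FPKM, in a single table with symbols and loci. The tools were bcl2fastq, TopHat2, Cufflinks and Bowtie2 on mm10, per the submitters' processing notes. For versions, gene annotation, filters and strand use the sources used here give nothing. The library kit keeps strand, per the labels' protocols. One line of the table is not reported here.

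Of 253 symbols on several rows, the row with the highest FPKM was used, which touches no member. Values of 0.001 or 0 FPKM count as the floor, against which folds were left out. Starts were raised by 1 to count from 1. Differences were taken on log2(FPKM + 1), which understates the change of low genes. Depth was estimated from the steps of low FPKM values in single-transcript genes over 1500 bp in GENCODE M21 (at the estimate, 74.0% to 79.7% of the low values were whole fragments to a tolerance of 0.15). Fragments behind a member are FPKM times depth times exonic length in the locus less 150 bp. These intervals leave out differences between animals, sorts and library preparations. The call rule and the depth estimate were tested on simulated data. Python 3.11.15, numpy 2.4.6, pandas 2.3.3, scipy 1.17.1 and matplotlib 3.10.9 were used.

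All members are named. For a member spanning 2 or more on log2(FPKM + 1) and reaching 5 FPKM, which is Ereg, the 3 most similar genes were named by rule. Pathway genes named were those called, or chosen after their values were seen. Members, lists and tests were chosen with earlier results of these data known. Alternatives were the pseudocount, the FPKM minimum, the fold, the scaling and the treatment of repeated symbols. Of the marker lists, the epithelial one summed to at most 0.568 FPKM, the satellite cell one to at most 10.9 (day 3), the T cell one to at most 2.51, and the endothelial one ran from 9.94 (day 1) to 82.5 (quiescent). Tek alone stood at 68.9 FPKM in quiescent and 7.34 on day 1, most of the endothelial sum in both.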

Additional observations from a re-analysis of the deposited data

How the results depend on the processing

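With 1 library a time point nothing could be left out as a replicate. No paired analysis was possible because each group has 1 library. Among the counts of members called, the day 1 count of 2 was 0 with median-ratio scaling and also 0 with a common FPKM sum, where Ereg was under 5 FPKM, and 1 (Ereg) with a difference of 2 required. Rescaled to a common sum, the count was 2 at days 2 and 3 (Egfr added) in place of 1, and 1 at day 4 in place of 0. With a minimum of 1 FPKM or with no minimum, Erbb3 was added, giving 3 at day 1 and 2 at days 2, 3, 5 and 7. With a pseudocount of 0.1 FPKM the day 5 count was 2 (Hbegf added). With a difference of 2 required, 0 members were called at days 2, 3, 5, 7 and 10. The share of all genes called was computed for the main call rule and the deposited values only. The 3 members lower from day 1 to day 2 became 2 by median ratio (Hbegf and Errfi1), 1 at a common sum (Errfi1) and 0 with a difference of 2 required, all tried after the data were seen. The pathway counts of 3 at day 3 and 1 at day 5 were 7 and 3 when rescaled to a common sum. Pathway genes higher and lower went from 6 and 3 at day 1 to 4 and 6 by median ratio and 4 and 8 at a common sum. At day 2 they went from 2 and 5 to 0 and 7, then 0 and 10, at day 3 from 1 and 2 to 0 and 4, then 0 and 7, and at day 10 from 3 and 2 to 2 and 2 by median ratio. The cause was not tested beyond this. Of 70 member differences, 2 changed sign when rescaled to a common sum (Errfi1 at day 1 and Hbegf at day 3) and 1 under median-ratio scaling (Hbegf at day 3), none of them a call. Rescaling to a common sum made quiescent the highest library of Errfi1, and both scalings made day 4 that of Nrg1. Summing the rows of a symbol changed no member. Depth limits Areg, Nrg1 and Tgfa most, with at most 5, 18 and 24 fragments.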
